A study of Mus musculus with 6 samples.

Results

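The Dlk1-Dio3 imprinted cluster is a long run of microRNA (miRNA) genes on mouse chromosome 12, and its members were examined here in the small RNA of mature sperm. Members were the rows of the deposited miRNA table whose name, without its arm or copy number, is 1 of 46 miRNA names listed for the cluster. This gave 48 of the 778 rows, from 38 of the 46 names, and none of the rows combined several miRNAs. The other 8 (miR-487b, miR-494, miR-539, miR-544, miR-654, miR-665, miR-679 and miR-758) were not analysed here. Sperm came from the cauda epididymis, where sperm are stored, of male C57BL/6 mice aged 8 weeks (C57BL/6J in the design text). There were 3 samples labelled normal mice and 3 labelled stress-induced depressed mice, called normal and stress below. No other allele or agent is named for either group, and the labels do not say what the stress was or how long it lasted. Nor do they say whether samples are separate animals or pools, so a p-value here weighs a difference against a spread between samples that may be technical.

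The cluster takes its name from the genes that flank it. In somatic cells its miRNAs are made from noncoding transcripts of the maternally inherited chromosome (Meg3, an antisense transcript of the retrotransposon-like gene Rtl1, Rian and Mirg), while Dlk1, Rtl1 and Dio3 are expressed from the paternal one. The imprint lies in a control region that is methylated on the paternal chromosome, a mark that is set in the male germ line. Several of the miRNAs are best known from brain, where miR-134 and miR-485 regulate synapses, and from placenta, where miR-127 and its neighbours pair perfectly with Rtl1 mRNA and direct its cleavage.

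In RefSeq (GRCm38.p6), 44 of the 46 hairpins had a position, all 44 on the plus strand of chromosome 12, over 180.1 kb (chr12:109563692-109743795). By GENCODE M21, which uses the same build, 1 lies in an exon of Meg3, 1 (miR-370) in an intron of Rian and 12 in Mirg (4 in exons, 8 in introns). The other 30 lie in no gene of their own strand. Of these, 5 (miR-431, miR-433, miR-127, miR-434 and miR-136) lie opposite an exon of Rtl1. Of the 48 mature rows, 46 (all but miR-485-5p and miR-376c-3p) matched RefSeq by name, with the same sequence in 46 of 46 cases. No build is named for the deposited counts, so these positions come from the reference alone.

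The 9 members that were abundant enough to test carry 9 different seeds, the bases 2 to 8 that lead target recognition. They are shown 5′ to 3′ as deposited, with the seed in capitals, because these 9 members are compared below.
miR-127-3p: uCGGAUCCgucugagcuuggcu
miR-434-5p: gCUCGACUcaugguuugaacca
miR-434-3p: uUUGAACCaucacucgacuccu
miR-379-5p: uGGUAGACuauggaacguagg
miR-411-5p: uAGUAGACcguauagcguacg
miR-382-5p: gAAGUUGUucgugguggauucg
miR-485-5p: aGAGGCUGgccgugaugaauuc
miR-541-5p: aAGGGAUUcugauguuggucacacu
miR-409-3p: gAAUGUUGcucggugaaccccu

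Among all 48 rows only miR-379-3p and miR-411-3p share a seed. Of 7 pairs with at most 4 mismatches, 3 are shown next with the differing bases in capitals, because reads of such pairs could be assigned to either. miR-411-3p and miR-379-3p differ at 2 bases and miR-381-3p and miR-300-3p at 3. miR-485-5p differs at 4 bases from miR-377-5p, which had 4 reads in all, and miR-376a-3p at 3 from miR-376b-3p. miR-299a-3p and miR-299b-3p, from opposite strands of the same site, are identical over the 18 nt deposited for the latter, and this pair held the 2 member values, of 288, that were not whole numbers (0.5 and 5.5 reads of miR-299a-3p).
miR-411-3p: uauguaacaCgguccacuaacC
miR-379-3p: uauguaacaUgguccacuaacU
miR-381-3p: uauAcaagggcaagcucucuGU
miR-300-3p: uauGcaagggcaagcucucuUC
miR-299a-3p: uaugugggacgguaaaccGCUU
miR-299b-3p: uaugugggacgguaaacc

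Libraries held 1010203 to 3067208 miRNA reads, the most in normal replicate 3, so 1 read was worth 0.326 to 0.99 reads per 1000000 miRNA reads (RPM). The scaling factors of edgeR (TMM, which centres the middle of the tested miRNAs) averaged 0.772 ± 0.0882 (SD, n = 3) in normal and 1.3 ± 0.0683 in stress libraries. A miRNA with an equal share of reads in both groups therefore has a lower TMM-scaled level in stress, and both scales are given below where they differ. Normal replicate 1 stood apart from its own group: its counts differed from those of normal replicates 2 and 3 by 473.5 and 553 in chi-square per degree of freedom, beside 80.4 between the latter and 282.3 to 350.5 between them and stress libraries. Rows were found for 17 of 17 names of a germ cell marker list, which took 0.676% to 0.883% of the reads in normal and 0.71% to 0.863% in stress libraries. On the TMM scale the germ cell list was lower in every stress library, at 7870 to 12930 CPM in normal and 5164 to 6953 CPM in stress. Markers of other cells were present too. Stromal, smooth muscle and endothelial markers (6 of 6 names with a row) took 0.268% to 0.496% in normal and 0.934% to 1.09% in stress. Epithelial markers (7 of 7) took 1.25% to 1.77% and 2.95% to 3.24%, and leukocyte markers (5 of 5) 0.036% to 0.0814% and 0.135% to 0.189%. Red blood cell markers (4 of 4) took 0.0341% to 0.102% in normal and 0.0268% to 0.0817% in stress. Neural markers (6 of 7, without miR-137) took 0.0825% to 0.151% and 0.142% to 0.158%. On the TMM scale too, the stromal (3476 to 6751 and 7251 to 8006 CPM), epithelial (18340 to 22190 and 22290 to 25190 CPM) and leukocyte lists (518 to 948.3 and 1052 to 1377 CPM) were higher in every stress library, and the red blood cell and neural lists overlapped on both scales. Single rows weigh heavily in these sums. In mean CPM, normal then stress, miR-881-3p (germ cell) was at 4931 and 2626 and miR-143-3p (stromal) at 4715 and 6641. miR-200b-3p (epithelial) was at 10430 and 10913 and miR-146a-5p (leukocyte) at 530.5 and 968.2. The groups overlapped for miR-143-3p and miR-200b-3p. Tested rows above and below 0 in log2 fold change numbered 8 and 10 (germ cell), 8 and 0 (stromal), 7 and 2 (epithelial) and 3 and 2 (leukocyte). Of tested markers, 2 of 8 stromal ones rose, 3 of 18 germ cell and 1 of 4 neural ones fell, and 0 of 9 epithelial, 0 of 5 leukocyte and 0 of 3 red blood cell ones passed. Beside these, 10.2% of all 236 tested miRNAs fell and 2.54% rose, and lists this short cannot be told from those shares. The part of these cells in the results below was not tested, and in such bulk samples fewer cells of a type and less RNA per cell cannot be told apart.

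The cluster was a minor part of sperm miRNA, and a pair of its members made up most of it. All 48 rows together took 0.0752%, 0.117% and 0.0737% of the miRNA reads in normal replicates 1 to 3 and 0.119%, 0.0981% and 0.128% in stress replicates 1 to 3. The 95% Wilson interval of the highest share ran from 0.121% to 0.135%. Such intervals cover counting error only, since reads are not independent molecules. The groups overlapped, with means of 0.0886% ± 0.0246 (SD, n = 3) in normal and 0.115% ± 0.0152 in stress. On the TMM scale the order of the means turned, with a difference, stress minus normal, of −0.0303 percentage points in place of 0.0262. miR-127-3p, which ranked 64th of 778 rows by mean RPM, and miR-379-5p, which ranked 78th, together held 66.3% to 77.3% of the cluster's reads.

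**Figure D1:**
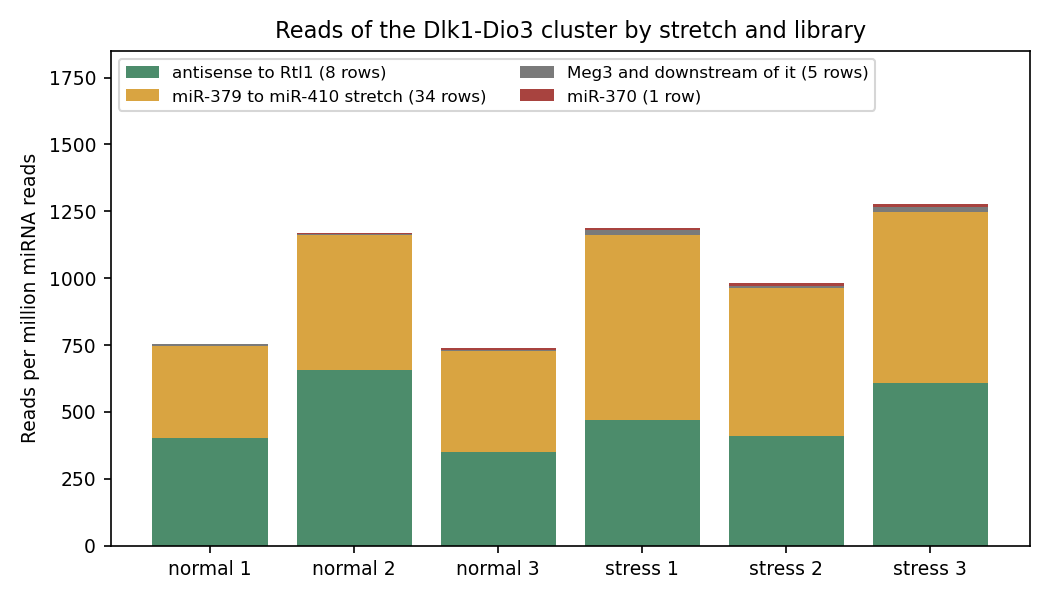
Level of the cluster in RPM (y axis) in each of the 6 libraries (x axis), stacked by the stretch of the cluster the miRNA lies in. Totals run from 737.2 in normal replicate 3 to 1276 in stress replicate 3, and nearly all reads come from the Rtl1 antisense and the miR-379 to miR-410 stretches.

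By position, nearly all reads came from 2 stretches. The 8 rows of the 5 miRNAs antisense to Rtl1 held 39.6% to 56.0% of the cluster's reads. The 34 rows of the stretch from miR-379 to miR-410, which ends in Mirg, held 43.2% to 58.1%. The 5 rows in and just downstream of Meg3 (miR-770, miR-673, miR-493, miR-337 and miR-540) held 0.461% to 1.53%, and miR-370 held 0.0% to 1.21%. As a share of all miRNA reads, the antisense group took 0.0469% ± 0.0163 (SD, n = 3) in normal and 0.0496% ± 0.0102 in stress, with overlap. The miR-379 to miR-410 stretch took 0.0408% ± 0.00859 and 0.0627% ± 0.00696, without overlap. With TMM this stretch stood at 445, 741.2 and 437.3 CPM in normal and 536.1, 445.4 and 464.9 CPM in stress, with overlap and a lower stress mean. On the scale of shares, most miRNAs sat higher in stress: the groups did not overlap for 62.3% of the 236 tested miRNAs, and 56.8% were higher in every stress library, so the higher share of this stretch is shared with most of the table.

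**Figure D2:**
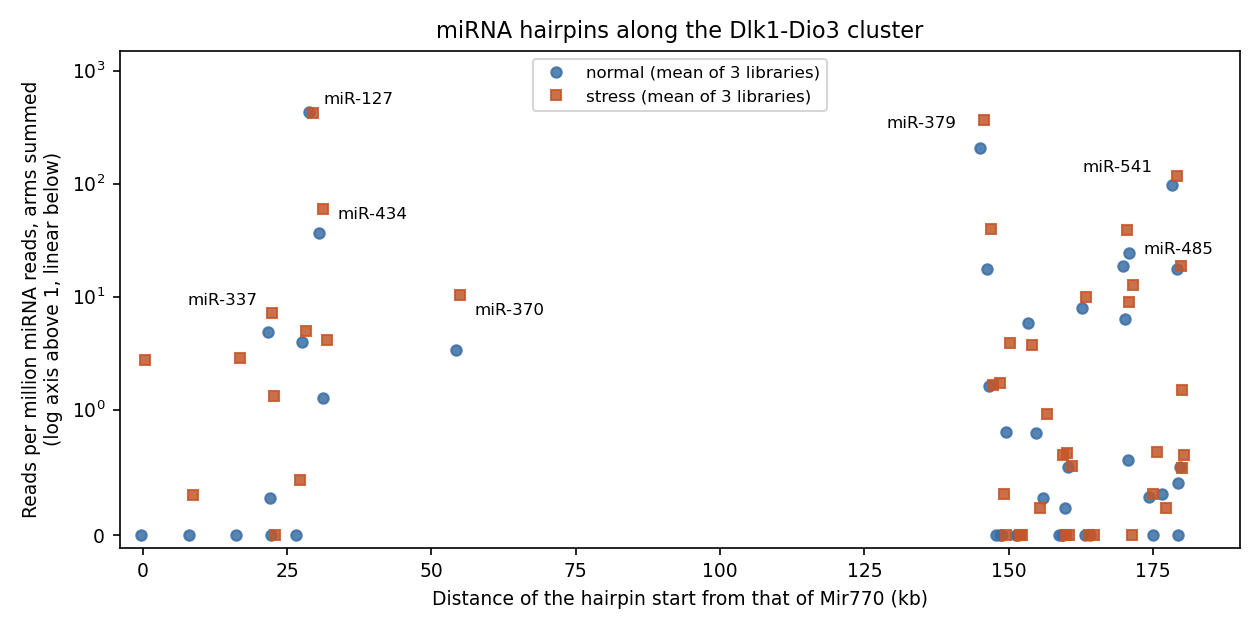
Mean RPM, arms summed (y axis, logarithmic above 1), for each hairpin with a RefSeq position against its distance from the start of Mir770 (x axis, kb). Circles are normal and squares stress means of 3 libraries; miR-127 and miR-379 stand far above their neighbours, and many hairpins lie at or near 0.

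The comparison of stress with normal sperm asks, by the series title, how sperm small RNA of depressed males compares with that of normal males. Within the cluster 1 of the 9 tested members, miR-485-5p, fell in stress sperm (3.84-fold). None rose, and 8 did not pass the threshold. Among all miRNAs, 12.7% of the 236 tested miRNAs passed: 24, or 10.2%, were lower and 6, or 2.54%, higher. With 9 members tested, 1 call is near that background, so the count says nothing particular to the cluster. The median log2 fold change of the 9 members was −0.5, beside 0 for all 236, with 4 members above 0 and 5 below. Scaled to the miRNA total instead, the members' median was 0.27 beside 0.76 for all miRNAs. Only 9 of 48 rows passed the filter, which asks for about 9.11 RPM in 3 libraries; with a minimum count of 5, 15 were tested, and without a filter 48, each time with miR-485-5p as the only call. Of the 9, miR-434-3p was above 9.11 RPM in 3 stress and only 1 normal library, so it passed through the group where it is high. miR-485-5p was above it in 3 normal and 2 stress libraries, so its stress libraries alone would not have passed it.

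miR-485-5p (mmu-miR-485 in the list of names) is processed from a hairpin in an exon of Mirg (chr12:109734902-109734974) and in neurons acts at synapses. It had 31, 25 and 57 reads in normal replicates 1 to 3 and 8, 16 and 12 in stress replicates 1 to 3. Scaled by TMM these are 37.1, 32.9 and 21.6 counts per 1000000 (CPM) in normal and 5.94, 8.46 and 8.64 CPM in stress. The highest stress library lay well under the lowest normal one, which was normal replicate 3. The mean went from 30.5 ± 7.99 CPM (SD, n = 3) to 7.68 ± 1.51 CPM, and the fitted level was 3.84-fold lower (log2 fold change −1.94 ± 0.40 SE, edgeR quasi-likelihood test, Benjamini-Hochberg adjusted p = 0.0094). Each of the 3 stress values lay under all normal ones, as for 20.8% of all tested miRNAs on the TMM scale. In RPM it stood at 28.6, 22.5 and 18.6 in normal and 7.65, 10.5 and 11.9 in stress, still apart. On that scale 5.51% of tested miRNAs were lower without overlap and 56.8% higher. As miR-485-5p had been called from the same counts, this is no further support. Scaled to the miRNA total the log2 fold change was −1.19 (edgeR, adjusted p = 0.032), a smaller fold that still passed. With each sample left out in turn it stayed between −2.14 and −1.77, with edgeR adjusted p between 0.011 and 0.043; without normal replicate 1 it was −1.79 (adjusted p = 0.039).

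The other arm of that hairpin, miR-485-3p, did not pass the filter, with 2, 2 and 1 reads in normal and 5, 0 and 3 in stress (0.28 ± 1.34 SE on the log2 scale in edgeR without a filter, adjusted p = 0.935). Both arms summed were at −1.65 ± 0.37 SE on the log2 scale (edgeR adjusted p = 0.015). The nearest tested neighbours in Mirg allow a comparison by the ratio of reads within a library. miR-382-5p, from an intron of Mirg 1.1 kb upstream, had 13, 25 and 67 reads in normal and 41, 47 and 46 in stress, so there were 2.38, 1.0 and 0.851 reads of miR-485-5p for each of miR-382-5p in normal and 0.195, 0.34 and 0.261 in stress. These ratios, which need no scaling between libraries, did not overlap. Against miR-541-5p, 7.4 kb downstream, the ratios were 0.272, 0.208 and 0.241 in normal and 0.0625, 0.103 and 0.096 in stress, again apart. miR-485-5p had already been called from the same counts, so ratios that stay apart are no further support for its fall. In RPM miR-382-5p was itself higher in every stress library. Such ratios were not taken for other miRNAs.

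**Figure D3:**
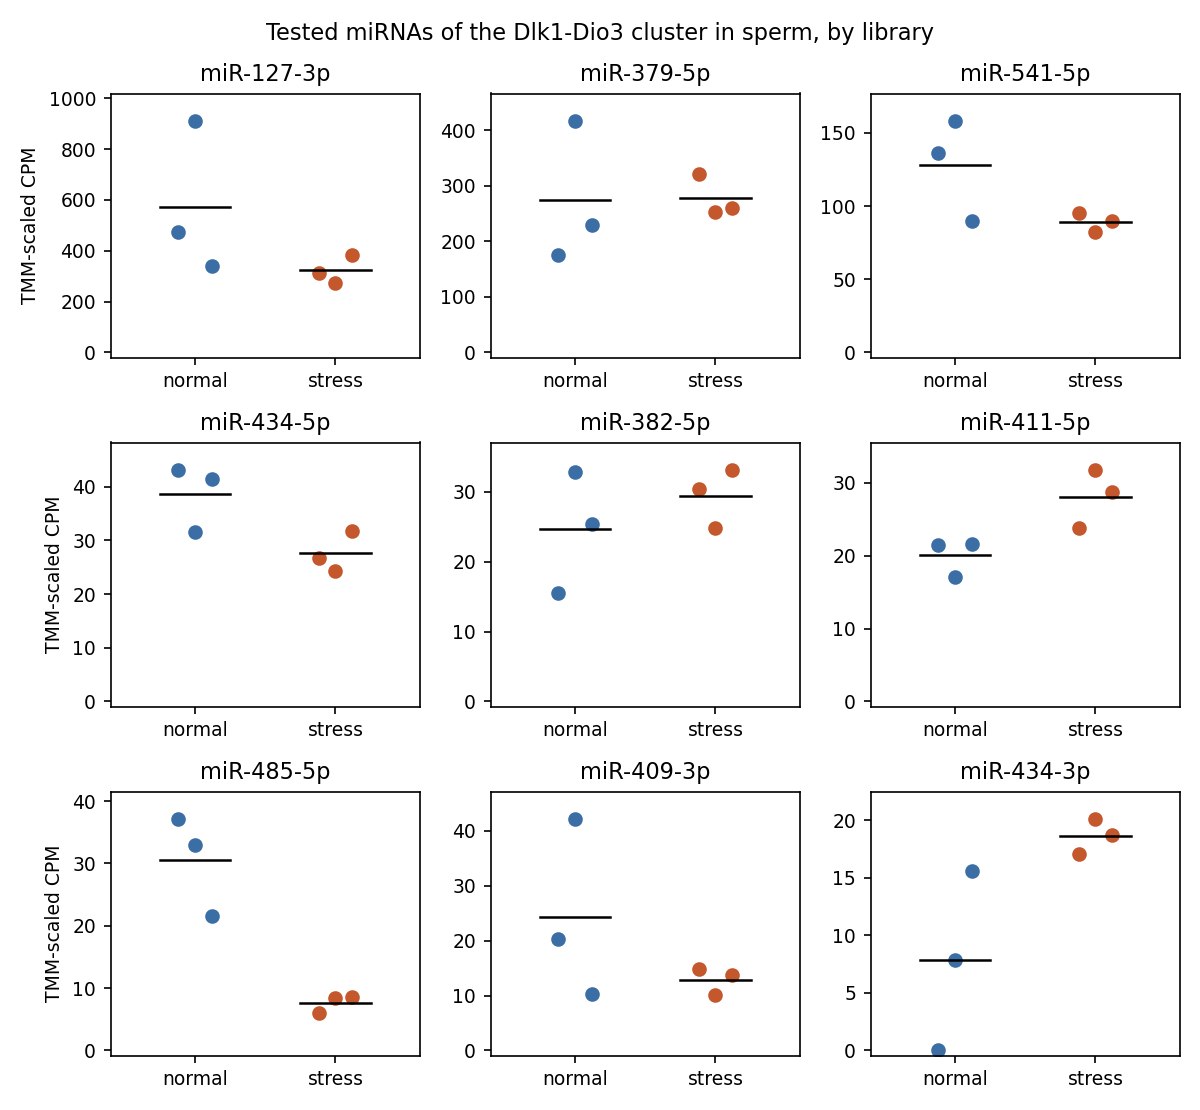
TMM-scaled CPM (y axis, linear) of the 9 tested cluster members in each library, with 3 normal (blue) and 3 stress (orange) points per panel and the group mean as a line. All 3 stress points of miR-485-5p lie far under its normal points, while the normal points of miR-127-3p, miR-379-5p and miR-409-3p are widely spread.

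Of the antisense miRNAs, miR-127-3p (mmu-miR-127; mature sequence at chr12:109592888-109592909), which targets Rtl1 across its own locus, was the most abundant member of the cluster. It stood at 472.5, 909.6 and 340.2 CPM in normal replicates 1 to 3 and at 314, 273.5 and 382.2 CPM in stress replicates 1 to 3. Normal replicate 2 was far above the rest, and the groups overlapped between normal replicate 3 and stress replicate 3. The log2 fold change was −0.83 ± 0.37 SE (95% interval −1.64 to −0.01) and did not pass in edgeR (adjusted p = 0.15). Single libraries move this value: without normal replicate 3 it was −1.07 and passed (edgeR adjusted p = 0.048), as did 21.6% of all miRNAs tested there. Without normal replicate 2 it was −0.31. Scaled to the miRNA total it was −0.01.

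The hairpin of miR-434 (mmu-miR-434), another antisense miRNA, gave reads from both arms in amounts that can be compared, and it is shown with the mature arms in capitals (chr12:109594506-109594599, plus strand, GRCm38.p6, from RefSeq).
Mir434: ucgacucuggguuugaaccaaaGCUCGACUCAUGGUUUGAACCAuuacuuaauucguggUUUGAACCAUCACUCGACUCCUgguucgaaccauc

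miR-434-5p was at 43.1, 31.6 and 41.4 CPM in normal and 26.7, 24.3 and 31.7 CPM in stress. The groups overlapped narrowly at normal replicate 2 and stress replicate 3, and the log2 fold change of −0.50 ± 0.30 SE did not pass in edgeR (adjusted p = 0.27). It was 0.24 scaled to the miRNA total. miR-434-3p had 0, 6 and 41 reads in normal and 23, 38 and 26 in stress, or 0, 7.90 and 15.6 against 17.1, 20.1 and 18.7 CPM. Every stress library was above every normal one, as for 18.6% of all tested miRNAs. Its log2 fold change was 1.03 ± 0.65 SE (edgeR adjusted p = 0.28), and 2.29 without normal replicate 3 and 0.57 without normal replicate 1, the library at 0, where 3 reads would be 2.77 RPM.

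With TMM the arms of miR-434 stood on opposite sides of 0, while with the miRNA total both were above it (0.24 and 1.73). Their balance needs no scaling between libraries. The 5p arm gave 100%, 80.0% and 72.7% of the miR-434 reads in normal replicates 1 to 3, with 95% Wilson intervals of 90.4% to 100%, 62.7% to 90.5% and 65.0% to 79.2%. In stress replicates 1 to 3 it gave 61.0% (48.3% to 72.4%), 54.8% (44.1% to 65.0%) and 62.9% (51.1% to 73.2%). The groups did not overlap, although the interval of normal replicate 2 overlapped those of all 3 stress libraries and that of normal replicate 3 those of stress replicates 1 and 3. Means were 84.2% ± 14.1 (SD, n = 3) and 59.5% ± 4.24 (two-sided exact permutation p = 0.1, the smallest that 3 against 3 allow). Adjusted by Benjamini-Hochberg over the 7 hairpins compared, this exact p was 0.35, so the difference did not pass. With both arms summed, miR-434 was at 0.03 ± 0.29 SE on the log2 scale (edgeR adjusted p = 0.94).

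**Figure D4:**
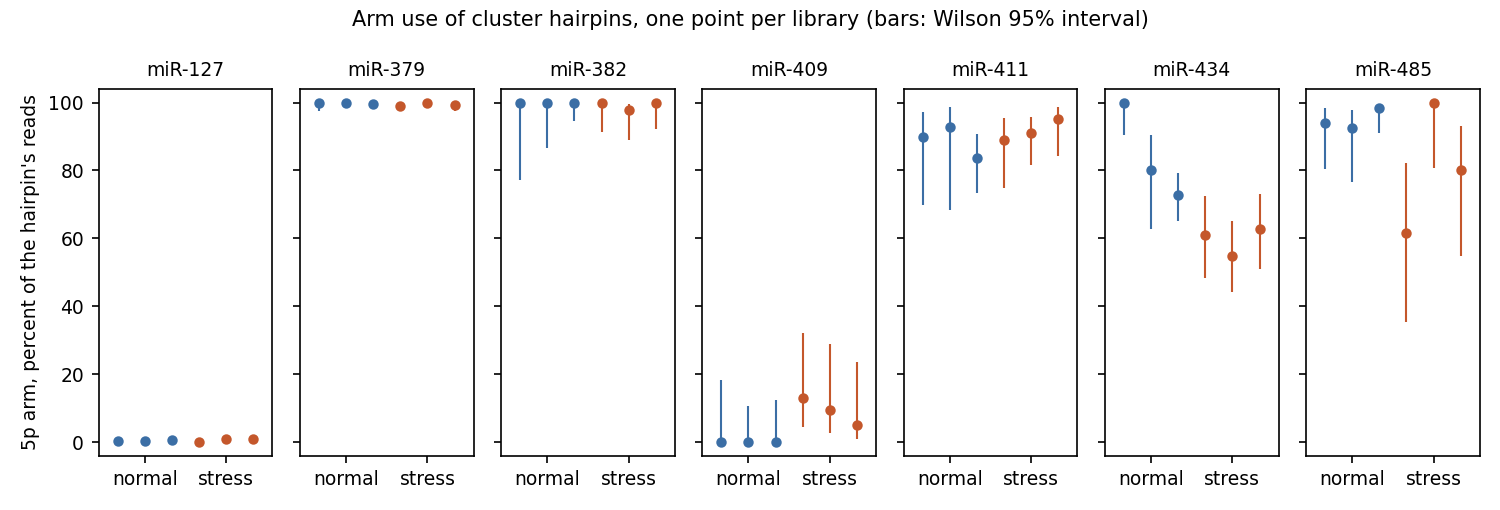
Share of the 5p arm among the reads of 7 hairpins (y axis, percent), 1 point per library, normal in blue and stress in orange, with Wilson 95% intervals as bars. miR-127 and miR-409 gave mostly the 3p arm and the other 5 mostly the 5p arm in every library; miR-434 lies lower in all 3 stress libraries.

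Of the 7 hairpins with both arms and at least 20 reads that could be compared in all 6 libraries, each had the same arm above 50% in every library. miR-127 gave 0.0% to 0.958% of its reads from the 5p arm, and miR-379 gave 98.9% to 100%. miR-409 had 0 reads of the 5p arm in each normal library, against 17, 32 and 27 of the 3p arm, and 3, 2 and 1 reads against 20, 19 and 19 in stress. The normal counts allow a 5p share of up to 18.4%, 10.7% and 12.5% by the Wilson interval, beside stress values of 13%, 9.52% and 5.0%, so only the highest stress value lies above 2 of the 3 limits (exact permutation p = 0.1, adjusted 0.35). miR-136, a further antisense miRNA with 23 reads in all, had no reads in normal replicate 2 and was not compared. Its 5p arm led in normal replicate 3 (4 reads against 2) and its 3p arm in the other 4 libraries with reads.

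In the stretch from miR-379 to miR-410, miR-485-5p was the single call of the 6 tested members. miR-379-5p, from the first hairpin of the stretch (mmu-miR-379; mature sequence at chr12:109709065-109709085), was at 175.8, 416 and 228.5 CPM in normal and 321.5, 252.9 and 259.1 CPM in stress. The normal libraries spanned the whole stress range, and the log2 fold change was 0.03 ± 0.34 SE (95% interval −0.72 to 0.78, edgeR adjusted p = 0.97), with a sign that changed when single samples were left out. Scaled to the miRNA total it was 0.82 (edgeR adjusted p = 0.061), with the groups apart. miR-411-5p, from the next hairpin, was at 21.5, 17.1 and 21.6 CPM in normal and 23.8, 31.7 and 28.8 CPM in stress, higher in every stress library. Its log2 fold change of 0.47 ± 0.32 SE did not pass in edgeR (adjusted p = 0.32). Scaled to the miRNA total it passed at 1.2 (edgeR adjusted p = 0.020), where 44.9% of all tested miRNAs passed.

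miR-382-5p, in Mirg, was at 15.6, 32.9 and 25.4 CPM in normal and 30.4, 24.9 and 33.1 CPM in stress, with overlap. It was at 0.25 ± 0.35 SE (edgeR adjusted p = 0.655). Scaled to the miRNA total it passed at 1.01 (edgeR adjusted p = 0.043), again beside 44.9% of all tested miRNAs. miR-541-5p, toward the end of Mirg, was at 136.4, 158 and 89.97 CPM in normal and 95.03, 82.52 and 89.96 CPM in stress. Normal replicates 1 and 2 stood above all stress libraries and normal replicate 3 among them; the log2 fold change was −0.51 ± 0.29 SE (edgeR adjusted p = 0.23). With the miRNA total as scale it was 0.27. miR-409-3p was at 20.3, 42.1 and 10.3 CPM in normal and 14.9, 10.1 and 13.7 CPM in stress. The normal libraries spread over a wider range than the difference, and it was at −0.84 ± 0.52 SE (edgeR adjusted p = 0.28). It was −0.17 without normal replicate 2, −1.25 without normal replicate 3, and −0.04 with the miRNA total as scale.

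**Figure D5:**
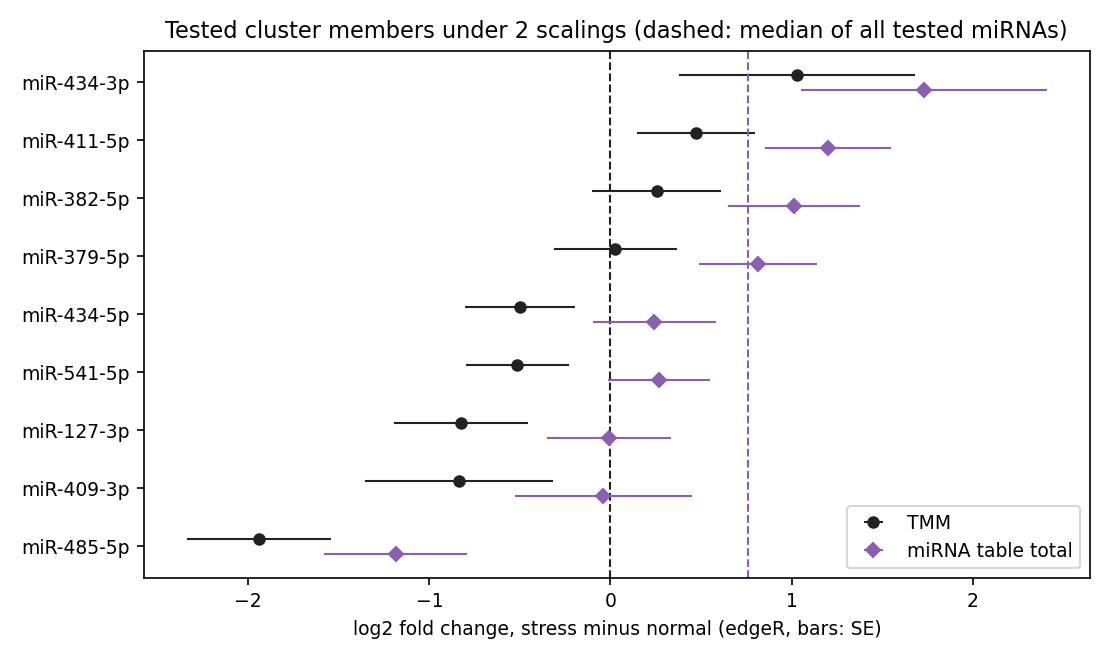
Log2 fold change, stress minus normal, with its SE (x axis) for the 9 tested members (y axis), scaled by TMM (circles) or by the miRNA table total (diamonds); dashed lines mark the median of 236 miRNAs under each scaling (0 and 0.76). The order of the members is alike, and miR-485-5p lies below both lines and below 0 under both scalings.

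Without overlap between the groups there were 3 of 9 members on the TMM scale (miR-485-5p lower, miR-411-5p and miR-434-3p higher), where 39.4% of all tested miRNAs showed this. In RPM there were 5 of 9 (miR-379-5p and miR-382-5p also higher), beside 62.3% of all. Both counts hold miR-434-3p and miR-485-5p. Each was above 9.11 RPM in all 3 libraries only in the group where it is high, so their place in the counts is no added support.

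The make-up of the cluster, as shares of its own reads, needs no scaling either. miR-485-5p took 3.81%, 1.92% and 2.52% of the cluster's reads in normal and 0.644%, 1.07% and 0.931% in stress replicates. The 95% Wilson interval of normal replicate 2 (1.3% to 2.82%) overlaps that of stress replicate 2 (0.66% to 1.73%). miR-379-5p took 23.0% ± 4.43 (SD, n = 3) in normal and 31.6% ± 3.49 in stress, without overlap, though normal replicate 3 at 26.6% was near stress replicate 3 at 27.9%. miR-127-3p took 47.1% ± 6.84 and 36.6% ± 3.97, with overlap. Of the 9 shares, 5 did not overlap between the groups: miR-485-5p was lower, and miR-379-5p, miR-382-5p, miR-411-5p and miR-434-3p were higher. The same 5 were apart in RPM, as were 62.3% of all tested miRNAs. No such count was made outside the cluster, so the tally says nothing particular to it. It also holds miR-434-3p and miR-485-5p, each above 9.11 RPM in all 3 libraries only in the group where it is high. The members' shares sum to a whole, so a lower share of one member raises the others.

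The 39 rows that were not tested held 1.0 to 77.0 reads each over all 6 libraries. Of them 7 reached 10 reads in some library. miR-381-3p had 6, 13 and 21 reads in normal and 9, 20 and 8 in stress replicates. miR-134-5p, a regulator of dendritic spines from an exon of Mirg, had 8, 5 and 22 reads in normal and 9, 11 and 11 in stress. On the TMM scale the groups overlapped for both.

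miR-370-3p, from the Rian intron, had 0, 4 and 20 reads in normal and 9, 18 and 11 in stress. As a share of miRNA reads it was higher in all 3 stress libraries, and on the TMM scale the groups overlapped (up to 7.59 CPM in normal and from 6.68 CPM in stress). miR-337-5p, near Meg3, had 7, 5 and 11 reads in normal and 11, 6 and 7 in stress.

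miR-543-3p was uneven within both groups, with 11, 0 and 23 reads in normal and 10, 1 and 1 in stress. miR-433-3p, antisense to Rtl1, had 1, 5 and 20 reads in normal and 5, 8 and 5 in stress, and miR-411-3p had 2, 1 and 11 and 4, 6 and 2. A further 17 rows peaked at 3 to 7 reads in a library. The remaining 15 stayed under 3 reads everywhere: miR-495-3p, miR-369-5p, miR-666-5p, miR-667-5p, miR-154-5p, miR-668-3p, miR-376a-3p, miR-376c-3p, miR-431-5p, miR-376b-3p, miR-496a-3p, miR-673-5p, miR-382-3p, miR-376b-5p and miR-323-5p.

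These rare rows appeared in more stress than normal libraries. The untested rows together had 43.5, 50 and 168 reads in normal and 98, 116.5 and 86 in stress, or 0.00402% to 0.00548% and 0.00765% to 0.00937% of the miRNA reads, without overlap. With TMM they stood at 51.4, 65.8 and 63.8 CPM in normal and 72.8, 61.9 and 61.9 CPM in stress, with overlap. Of the 39, 13 were detected in stress libraries only and 2 in normal libraries only. The same count was not made for the other rows of the table, so it says nothing particular to the cluster. Members with at least 1 read numbered 20, 24 and 30 in normal and 29, 35 and 33 in stress. At the depth of the smallest library the expected numbers were 19.6, 23.5 and 24.6 in normal and 28.9, 31.4 and 33.0 in stress. Over the whole table the same numbers were 430.4 to 473.3 of 778 rows in normal and 492.7 to 525.0 in stress, also higher in every stress library, while those of the Sfmbt2 cluster, also imprinted, overlapped (47.9% to 57.8% of its rows in normal and 52.9% to 66.0% in stress).

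Within stress, miR-493-5p reached 7 reads in replicate 1 and miR-770-3p reached 7 reads in replicate 3, each with 0 reads in all normal libraries. A count of 0 allows up to 3 reads, which is 0.978 to 2.77 RPM in the normal libraries. miR-409-5p and miR-412-5p were the 2 rows seen in all 3 stress and no normal library, with 6 and 5 reads in total. Such counts do not show a difference at this depth.

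Other miRNAs of the same locus, from a list of 17 names outside the members, gave 3 rows and almost no reads. miR-1193-3p had 4 reads in normal replicate 3, miR-3072-5p had 1 read in stress replicate 2, and miR-299b-3p had 0.5 reads in each of 2 libraries. None could be tested. RefSeq places 12 further hairpins within the span of the members, among them Mir341, Mir432 and Mir882.

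The intronic cluster of Sfmbt2, also imprinted in mouse but expressed from the paternal chromosome, was taken as a comparison. It had 47 rows, 8 of them tested, of which 1 fell, 0 rose and 7 did not pass, with a median log2 fold change of 0.18. It took 0.0944% to 0.34% of the miRNA reads in normal and 0.0556% to 0.0639% in stress, without overlap. Most of that share was 1 row, miR-669c-5p, with 83.5% to 95.9% of the Sfmbt2 reads in normal and 51.3% to 61.7% in stress; without it the shares were 0.0114% to 0.0156% and 0.0245% to 0.0271%, higher in stress. The difference between the clusters was not tested.

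In sequence the tested members were near the other tested miRNAs. Their median GC content was 50% (44.0% to 59.1%) beside 45.5% in the other 227, and their median G content was 28.6% beside 27.3%. Their median level was lower, at 27.1 CPM beside 90.4 CPM, so their fold changes rest on fewer reads. Of the 9 seeds, 1 occurred in another row of the table, that of miR-411-5p in miR-7229-5p.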

How the data were processed

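Small RNA of 6 sperm samples was measured by sequencing. Extraction used Trizol, and libraries came from the Illumina TruSeq RNA Sample Prep Kit, per the labels' protocols; Bowtie was used, per the submitters' processing notes. No source used here gives its version, the genome build, the annotation or the counting rule. As unit, the authors deposited expected counts per mature miRNA, of which 92.0% were whole numbers within 0.001; no source used here says how the fractions arose. The piRNA and tRNA fragment tables hold no member and were not used here.

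After rounding, the quasi-likelihood test of edgeR 4.0.16 (R 4.3.3) was run on miRNAs kept by filterByExpr at a minimum count of 10, with TMM factors and no covariate; the Benjamini-Hochberg adjustment of its two-sided p-values ran over all 236 of them, with a threshold of 0.05. The SE is the size of the log2 fold change divided by the square root of F, and 95% intervals of it take the t distribution with the degrees of freedom of the fit. CPM is per 1000000 reads of the scaled library. The fit was also run on simulated data, but the outcome is not given here and supports no result above. No library copies another: the closest pair gave 38.5 for chi-square over its degrees of freedom. Alternatives were RLE, upper-quartile and no factors, DESeq2 1.42.0, 2 filters, arms summed, a replicate block and each sample left out. Every tested member is named; untested ones are given by their counts if they reached 10 reads or were among the 6 with the largest totals, and those under 3 reads are only named. Members and lists were chosen with earlier results of these data known. Some features singled out (miR-493-5p, miR-770-3p, miR-409-5p, miR-412-5p, miR-669c-5p) were chosen after their values were seen.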

Additional observations from a re-analysis of the deposited data

How the results depend on the processing

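miR-485-5p kept its direction and its call under all 14 alternatives run, between −2.14 and −1.19 on the log2 scale. Scaled to the miRNA total, 106 miRNAs passed (96 higher, 10 lower) in place of 30, because that scaling moves the median of all miRNAs to 0.76. These are 44.9% of the 236 tested, so 3 calls among the 9 members, in place of 1, say nothing particular to the cluster. The 3 were miR-485-5p lower and miR-411-5p and miR-382-5p higher. miR-434-5p (0.24) and miR-541-5p (0.27) then changed sign. DESeq2 called 47 miRNAs (19.9% of those tested) and the unfiltered edgeR fit 49 (6.32%), each with 1 member. With each sample left out, calls over all miRNAs ran from 17 (without stress replicate 3) to 55 (without normal replicate 3), and member calls from 1 to 2. The 2 came without normal replicate 3, from 12 members tested, where 21.6% of all tested miRNAs passed. miR-379-5p ran from −0.23 to 0.47. The cluster's summed share, stress minus normal, was 0.0262 percentage points (0.0187 to 0.0404 with a sample left out) and −0.0303 on the TMM scale. With the arms of miR-434 summed its value was 0.03. The cause of changes other than the scaling's own shift was not tested.

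The replicate numbers of the titles showed no sign of pairing: deviations of same-numbered samples correlated at 0.11, −0.21 and 0.12, and those of other pairs at −0.32 to 0.24. So few samples cannot exclude pairing. With a replicate block edgeR called 28 miRNAs and 1 member, miR-485-5p. Depth limits the members under about 9.11 RPM. They were tested only with the looser filters or, for some of them, with a sample left out (10 to 12 members tested). There 0 of them passed by edgeR (without a filter 2, miR-493-5p and miR-770-3p, had an unadjusted p under 0.05).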
